A study of Mus musculus with 12 samples.

Results

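The endothelial barrier genes, 10 in number, were followed through the RNA sequencing of mouse spinal cord white matter. They were Cldn5, Ocln, Tjp1, Pecam1, Cdh5, Flt1, Kdr, Abcb1a, Slco1a4 and Tek, taken from the count table by gene symbol. All 10 were among the 46078 genes listed and the 15866 that passed the filter on low counts. The libraries came from C57Bl6 mice in 4 groups of 3 pools, which crossed age (young, 6 weeks, or middle-aged, 8 months) with state (naïve or injured). Naïve cord had no lesion, whereas injured cord was taken at day 3, or 72 h, after lysolecithin, a detergent-like lipid that strips myelin, had been injected into the ventrolateral white matter. The tissue was laser-captured from that region, and each pool held the captured tissue of 5 mice, so that the spread between pools is a spread between mixtures of mice. The comparison groups were naïve and not injected with vehicle, so that the lesion and the injection cannot be told apart.

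The capillaries of the central nervous system are lined by endothelial cells that are sealed to one another by tight junctions and adherens junctions and that carry selective transporters. Claudin-5 (Cldn5) and occludin (Ocln) span the membrane at tight junctions and are tied to the cytoskeleton by ZO-1 (Tjp1), while VE-cadherin (Cdh5) and PECAM-1 (Pecam1) hold the lateral borders together. The efflux pump P-glycoprotein (Abcb1a) and the organic anion transporter Oatp1a4 (Slco1a4) control what crosses. VEGF receptors (Flt1 and Kdr) and the angiopoietin receptor Tie2 (Tek) set growth and permeability, with Kdr as the main signalling VEGF receptor, Flt1 acting largely as a trap for ligand, Angpt1 stabilising vessels through Tie2 and Angpt2 commonly opposing it.

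RefSeq promoters of the GRCm38.p6 build, from 250 bases before to 50 after the start, were matched for 8 of the 10 genes. Pecam1 and Cdh5 had no entry. Of the members that moved after injury, the 3 with a promoter are shown, together with that of Tek, since they differ in base composition and in the motifs they hold. Capitals mark the 6 motifs searched on both strands, each run being 5′ to 3′ on the strand of the gene.
Slco1a4 (chr6:141856171-141856470, minus strand): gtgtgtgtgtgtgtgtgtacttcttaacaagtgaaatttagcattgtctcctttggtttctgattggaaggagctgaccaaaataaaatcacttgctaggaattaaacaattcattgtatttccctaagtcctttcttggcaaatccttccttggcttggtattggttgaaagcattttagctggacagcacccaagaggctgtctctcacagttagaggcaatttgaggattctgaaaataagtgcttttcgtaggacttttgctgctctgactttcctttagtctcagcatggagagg
Kdr (chr5:75978406-75978705, minus strand): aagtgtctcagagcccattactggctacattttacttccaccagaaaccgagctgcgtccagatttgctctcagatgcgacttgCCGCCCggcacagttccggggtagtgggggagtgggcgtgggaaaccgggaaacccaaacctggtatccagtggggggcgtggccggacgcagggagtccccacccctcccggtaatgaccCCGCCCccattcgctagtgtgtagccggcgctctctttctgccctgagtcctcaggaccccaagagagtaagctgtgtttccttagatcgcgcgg
Flt1 (chr5:147725962-147726261, minus strand): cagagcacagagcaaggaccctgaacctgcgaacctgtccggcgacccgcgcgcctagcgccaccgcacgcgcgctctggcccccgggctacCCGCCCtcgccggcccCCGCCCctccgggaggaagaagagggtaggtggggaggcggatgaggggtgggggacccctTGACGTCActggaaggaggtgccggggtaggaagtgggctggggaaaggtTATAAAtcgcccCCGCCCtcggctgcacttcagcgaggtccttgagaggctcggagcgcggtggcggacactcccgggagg
Tek (chr4:94739039-94739338, plus strand): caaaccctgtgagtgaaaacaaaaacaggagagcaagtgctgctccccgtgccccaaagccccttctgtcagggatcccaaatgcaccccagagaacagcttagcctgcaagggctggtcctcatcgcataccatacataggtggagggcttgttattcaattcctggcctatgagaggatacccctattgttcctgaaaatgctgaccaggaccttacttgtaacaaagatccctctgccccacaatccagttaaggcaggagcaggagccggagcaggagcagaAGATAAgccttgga
The Slco1a4 window had a GC content of 40.7% with 1 CG dinucleotide, and the Flt1 window 70.7% with 29. Kdr lay between them at 60.7% with 19, and the median over 32851 mouse promoters was 52.7%. The motifs searched were CAGGAAG of ETS factors (in 13.3% of all promoters), CTTTGAT of LEF/TCF factors (3.73%), AGATAA of GATA factors (11.2%), the cyclic AMP response element TGACGTCA (1.79%), the TATA box TATAAA (13.6%) and the GC box CCGCCC (35.7%). The last 3 motifs were added after the sequences had been seen. Flt1 held TGACGTCA at -81, TATAAA at -31 and CCGCCC at -158, -142 and -19, counted from the start. TGACGTCA is its own reverse complement and was counted once. Kdr held CCGCCC at -166 and -45, Tek held AGATAA at 37, and none of the 6 letter strings occurred in the Slco1a4 window. A match of letters is a description and was not tested as a binding site.

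Counts per pool came to 9834447 to 12807437. The tissue was rich in oligodendrocyte RNA: the 6 oligodendrocyte genes summed to 83480 to 97425 CPM (counts scaled to library size, set by trimmed means) in the young naïve pools. Neuronal RNA was present too, with 4 neuron genes summing to 681 to 1976 CPM in young naïve and 1167 to 1239 CPM in middle-aged naïve pools. In the lesions their sum was 275 to 480 CPM in young and 363 to 446 CPM in middle-aged pools. Of these 4 genes, 2 were called lower in young lesions, and 3 lower and 1 higher in middle-aged lesions. Endothelial RNA was present in each group. All 14 other endothelial genes of a fixed list passed the floor of 3 counts in some pool of each group, though not necessarily all. Their sum was 107 to 127 CPM in young naïve, 134 to 148 in middle-aged naïve, 149 to 199.5 in young injured and 185 to 208 in middle-aged injured pools. The lesions also held far more myeloid RNA: 6 pan-myeloid genes, all called higher at both ages, rose from 71.8 to 102 CPM to 1373 to 1394 CPM in young and from 109.7 to 147 CPM to 1461 to 1950 CPM in middle-aged mice. Oligodendrocyte RNA fell to 18020 to 20015 CPM in young mice. In middle-aged mice it fell from 50693 to 58011 CPM to 7630 to 12186 CPM, with all 6 genes lower at both ages. Astrocyte RNA, of the cells whose end-feet wrap the vessels, fell from 10657 to 12286 CPM to 4979 to 5790 CPM in young and from 10026 to 11365 CPM to 3651 to 5138 CPM in middle-aged mice, with 5 of 6 genes lower. Stromal genes rose, with 5 of 5 higher at both ages, and none of the 5 red cell genes passed the filter on low counts. Their sum was 0.0960 to 1.98 CPM in 11 pools and 11.4 CPM in middle-aged injured pool 3, where Hba-a1 had 127 counts. In such bulk samples, fewer cells of a type and less RNA per cell cannot be told apart.

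After injury the barrier genes did not move as a block. In young mice, 3 were higher (Cdh5, Pecam1 and Kdr), 1 was lower (Slco1a4) and 6 did not pass the test. In middle-aged mice the same 3 genes were higher, and Slco1a4 and Flt1 were lower. A gene was called at an adjusted p under 0.05 by edgeR's quasi-likelihood test, adjusted by Benjamini-Hochberg over all genes tested. Over all genes, 54.6% were called in young mice (28.3% higher and 26.3% lower) and 58.5% in middle-aged mice (29.2% and 29.3%), so that 4 and 5 of 10 members were no more than the background. The median log2 fold change of the members was 0.16 in young and 0.083 in middle-aged mice, beside 0.000542 and -0.0322 for all genes. Injured and naïve pools did not overlap for 6 of the 10 members in either age, against 67.2% of all genes in young and 61.1% in middle-aged mice.

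**Figure D1:**
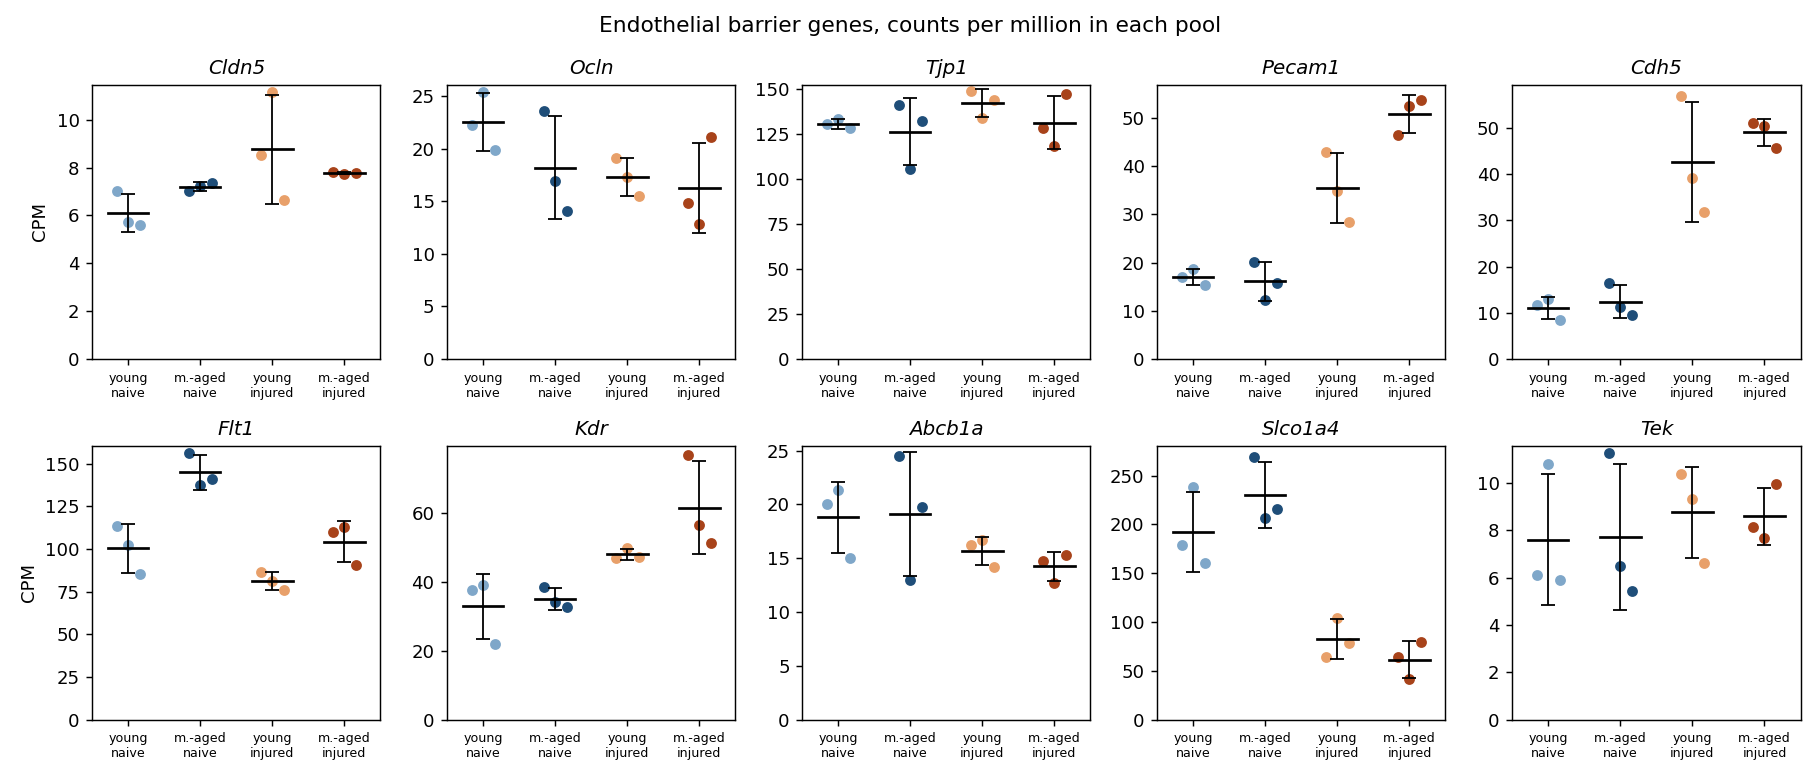
Library-scaled counts (CPM, linear axis from 0) of the 10 endothelial barrier genes in each of the 12 pools, by group, with the mean (bar) and SD (whiskers, n = 3). The injured pools of Cdh5 and Pecam1 lie above all naïve pools and those of Slco1a4 below them, while the groups of Tek and Abcb1a overlap.

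Cdh5, the adhesion molecule specific to endothelial adherens junctions, had the largest rise of the 10. It measured 11.8, 13 and 8.49 CPM in the young naïve pools, 16.5, 11.2 and 9.52 CPM in the middle-aged naïve pools, 56.9, 39.2 and 31.8 CPM in the young injured pools and 51.1, 50.4 and 45.8 CPM in the middle-aged injured pools. Each injured pool was above each naïve pool, and the lowest injured pool exceeded the highest naïve pool. On the log2 scale the injury effect was 1.94 ± 0.25 (SE) for young (edgeR adjusted p = 1.21e-05) and 1.98 ± 0.25 for middle-aged mice (edgeR adjusted p = 8.12e-06), or 3.84-fold and 3.96-fold. The spread between the young injured pools was wide, at a coefficient of variation of 30.3%, against 5.88% in the middle-aged injured pools.

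Pecam1, which is carried by endothelial cells and also by leukocytes and platelets, rose at both ages. Its levels were 16.9, 18.8 and 15.4 CPM in the young naïve pools, 20.2, 12.3 and 15.8 CPM in the middle-aged naïve pools, 43, 34.8 and 28.5 CPM in the young injured pools and 46.4, 52.5 and 53.7 CPM in the middle-aged injured pools. The injured pools of both ages stood above all naïve pools, and the middle-aged injured pools stood above the young injured ones. On the log2 scale the injury effect was 1.06 ± 0.19 (SE) for young (edgeR adjusted p = 3.46e-04) and 1.66 ± 0.20 for middle-aged mice (edgeR adjusted p = 5.18e-06). The difference between these 2 effects was 0.60 ± 0.27 and was not called (edgeR adjusted p = 0.486). The myeloid genes rose in the same pools, and their part in the Pecam1 result was not tested. Of the platelet markers, Gp9 and Ppbp were at or under 3 counts per pool in all 4 groups, while Pf4, also made by macrophages, was higher in the lesions.

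The 3 tight junction members did not pass the test after injury with all pools fitted. Cldn5, the main sealing claudin of brain and spinal cord endothelium, had few counts, at 52 to 144 per pool over 1416 exon bases. It measured 7.02, 5.71 and 5.59 CPM in the young naïve pools, 7.01, 7.24 and 7.36 CPM in the middle-aged naïve pools, 8.52, 11.2 and 6.63 CPM in the young injured pools and 7.8, 7.75 and 7.77 CPM in the middle-aged injured pools. The highest value was that of young injured pool 2, while young injured pool 3 lay within the young naïve range. All middle-aged injured pools were above the middle-aged naïve ones, and 61.1% of all genes had no such overlap in either direction. The effect of injury was 0.52 on the log2 scale for young mice with a 95% interval of 0.050 to 0.99 (edgeR adjusted p = 0.0581) and 0.11 with an interval of -0.36 to 0.58 in middle-aged mice (edgeR adjusted p = 0.688). In young mice the call depended on the pools and the scaling: the edgeR adjusted p was 0.046 without middle-aged naïve pool 2 and 0.0239 without young injured pool 3, and 0.0122 with library totals in place of trimmed means.

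Ocln, which is also made by glia, measured 22.2, 25.4 and 19.9 CPM in the young naïve pools, 23.6, 16.9 and 14.1 CPM in the middle-aged naïve pools, 19.1, 17.3 and 15.5 CPM in the young injured pools and 14.9, 12.9 and 21.1 CPM in the middle-aged injured pools. The young injured pools were all below the young naïve ones, and in middle-aged mice the groups overlapped. The log2 fold changes were -0.38 (95% interval -0.86 to 0.097, edgeR adjusted p = 0.165) and -0.16 (-0.64 to 0.32, edgeR adjusted p = 0.557). With only the 6 young pools fitted, Ocln was called lower in young mice at -0.38 (edgeR adjusted p = 0.0412). Tjp1 was the most evenly expressed member, with group means of 131 ± 2.74, 126 ± 18.7, 142 ± 7.83 and 131 ± 14.6 CPM (SD, n = 3) in the young naïve, older naïve, young injured and older injured groups. Its intervals were the narrowest of the 10, at -0.15 to 0.39 in young and -0.21 to 0.32 in middle-aged mice on the log2 scale, around 0.12 and 0.056 (edgeR adjusted p = 0.437 and 0.721). Tjp1 is expressed by many cell types, so that its level here is not one of endothelium alone.

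Slco1a4, the organic anion transporter of the blood-brain barrier, was the member that fell most. It measured 179, 238 and 160.1 CPM in the young naïve pools, 269, 206 and 216 CPM in the middle-aged naïve pools, 64.6, 105 and 78.2 CPM in the young injured pools and 63.8, 41.7 and 79.3 CPM in the middle-aged injured pools. No injured pool reached the lowest naïve pool of its age. On the log2 scale the injury effect was -1.22 ± 0.23 (SE) for young (edgeR adjusted p = 4.24e-04) and -1.90 ± 0.24 for middle-aged mice (edgeR adjusted p = 7.79e-06), which left 0.429 and 0.267 of the naïve level. The effect in middle-aged mice minus that in young mice was -0.68 ± 0.32 on the log2 scale, a difference that was not called (edgeR adjusted p = 0.507). Only 1.61% of its 50-base stretches occurred in other genes, among them Slco1a5, which had at most 1 count in a naïve pool and 10 to 22 counts in the injured pools.

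The efflux pump gene Abcb1a was not called at either age with all pools. It measured 20.04, 21.3 and 15.1 CPM in the young naïve pools, 24.5, 13 and 19.8 CPM in the middle-aged naïve pools, 16.2, 16.7 and 14.2 CPM in the young injured pools and 14.8, 12.7 and 15.3 CPM in the middle-aged injured pools. The injured pools lay within or just under the range of the naïve ones. The log2 fold changes were -0.26 (95% interval -0.73 to 0.21, edgeR adjusted p = 0.332) and -0.42 (-0.90 to 0.049, edgeR adjusted p = 0.114). Without middle-aged naïve pool 2 it was called lower in middle-aged mice, at -0.63 (edgeR adjusted p = 0.00832). These values are uncertain, since 22.5% of the 50-base stretches of Abcb1a occur in other genes, mainly its paralog Abcb1b, and since the transcript Gm42686 on the opposite strand overlaps 10.1% of its exon bases. Abcb1b, the second mouse P-glycoprotein gene, behaved differently, with 2.28, 2.27 and 3.44 CPM in the young naïve pools, 3.07, 6.82 and 2.96 CPM in the middle-aged naïve pools, 30.6, 30.7 and 24.4 CPM in the young injured pools and 39, 28.6 and 35.9 CPM in the middle-aged injured pools. It rose by 3.43 ± 0.31 and 3.02 ± 0.29 on the log2 scale (edgeR adjusted p = 3.55e-07 and 6.60e-07), every injured pool lying above every naïve one. Gm42686 had 20 to 67 counts per naïve pool and 30 to 45 per injured pool.

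The VEGF receptors parted after injury. Kdr measured 37.5, 39.2 and 21.9 CPM in the young naïve pools, 38.6, 34.1 and 32.6 CPM in the middle-aged naïve pools, 47, 49.8 and 47.1 CPM in the young injured pools and 76.7, 56.5 and 51.1 CPM in the middle-aged injured pools. Each injured pool was above the naïve pools of its age, and young naïve pool 3 was the lowest of the 12. On the log2 scale the injury effect was 0.54 ± 0.20 (SE) for young (edgeR adjusted p = 0.0342) and 0.81 ± 0.20 for middle-aged mice (edgeR adjusted p = 0.00321). The call in young mice was lost in 4 of the 12 leave-one-out fits, with an adjusted p of 0.126 without young naïve pool 3, 0.0616 without young injured pool 1, 0.0801 without young injured pool 2 and 0.0647 without young injured pool 3. Without young naïve pool 3 the log2 fold change itself dropped to 0.33.

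Flt1, which binds VEGF-A, VEGF-B and placental growth factor, was called lower after injury in middle-aged mice. It measured 114, 102 and 85.2 CPM in the young naïve pools, 156, 137 and 141 CPM in the middle-aged naïve pools, 86.4, 81.3 and 76.1 CPM in the young injured pools and 109.7, 113 and 90.7 CPM in the middle-aged injured pools. In middle-aged mice all injured pools were below the naïve ones, whereas in young mice the lowest naïve pool lay among the injured pools. Injury changed it by -0.47 ± 0.13 (SE) on the log2 scale in middle-aged mice (edgeR adjusted p = 0.00595) and -0.30 ± 0.13 in young mice (edgeR adjusted p = 0.0616). In young mice the adjusted p was 0.0178 without young naïve pool 3 and 0.0484 without middle-aged naïve pool 2. It was 0.0333 with upper-quartile factors, 0.0483 with the young pools alone, 0.0373 with the replicate block and 0.00193 relative to the other endothelial genes. In 5 of 9 other settings the young fall stayed uncalled. The 2 injury effects differed by -0.17 ± 0.18, which was not called (edgeR adjusted p = 0.829).

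Tek, which encodes the receptor Tie2, had 55 to 141 counts per pool. It measured 6.1, 10.8 and 5.91 CPM in the young naïve pools, 11.2, 6.51 and 5.44 CPM in the middle-aged naïve pools, 10.4, 9.3 and 6.63 CPM in the young injured pools and 8.13, 7.67 and 9.93 CPM in the middle-aged injured pools. The groups overlapped at both ages, with one high pool in each naïve group. The log2 fold changes were 0.20 (95% interval -0.46 to 0.86, edgeR adjusted p = 0.608) and 0.15 (-0.51 to 0.81, edgeR adjusted p = 0.692).

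**Figure D2:**
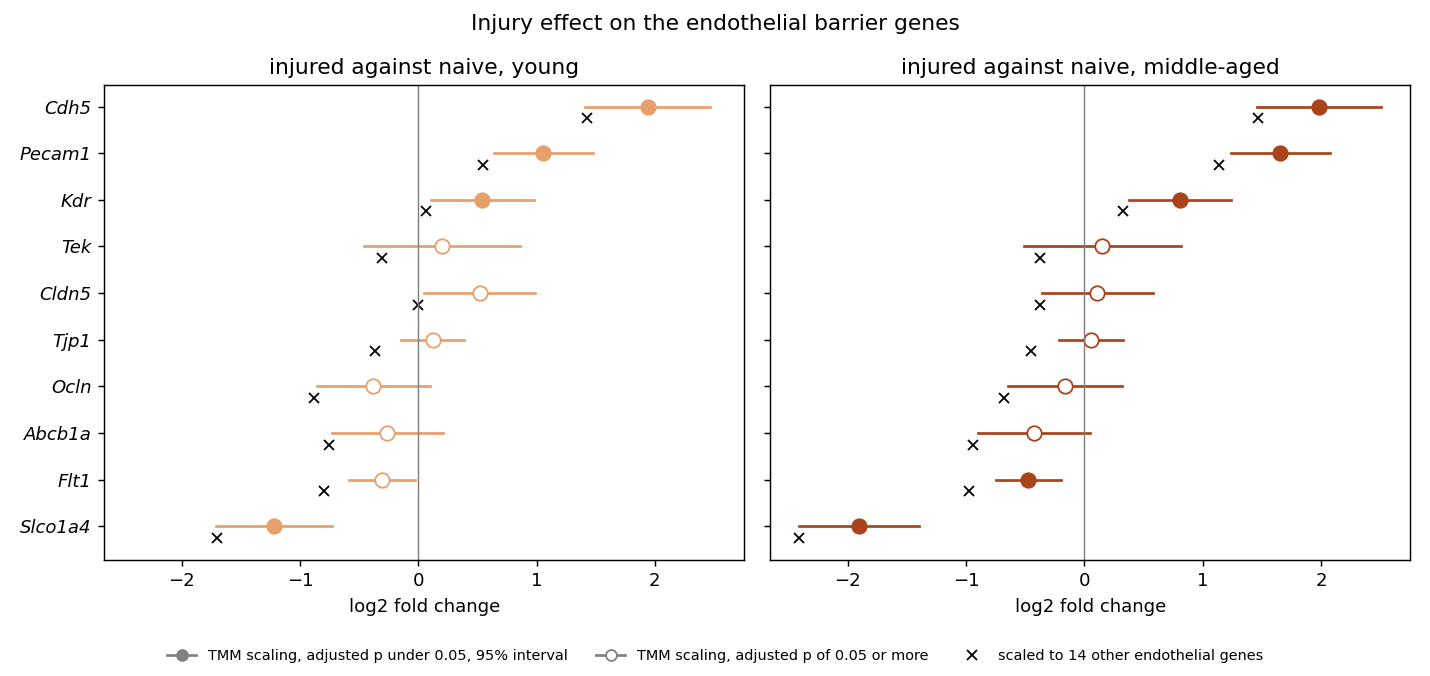
Log2 fold change of injured against naïve pools for the 10 barrier genes in young (left) and middle-aged mice (right), with 95% intervals (lines) and calls (filled circles), and the same value when libraries were scaled to the other endothelial genes (crosses). Cdh5, Pecam1 and Kdr lie to the right at both ages and Slco1a4 to the left, and the crosses sit lower throughout, as the median of all genes did (-0.49 and -0.52).

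The members were also compared relative to the 14 other endothelial genes, whose median log2 fold change was 0.46 in young and 0.51 in middle-aged mice. Of these 14, 4 and 3 were called higher, a share near or under that of all genes (28.3% and 29.2%). This scaling moved the median of all genes to -0.49 in young and -0.52 in middle-aged mice. Relative to these genes, 1 member was called higher and 4 lower in young mice, in place of 3 and 1, and 2 higher and 4 lower in middle-aged mice, in place of 3 and 2. Cdh5 stayed higher at both ages, with log2 fold changes of 1.43 and 1.47 (edgeR adjusted p = 1.02e-04 and 6.48e-05). Pecam1 stayed higher in middle-aged mice at 1.14 (edgeR adjusted p = 3.17e-04) and narrowly missed the threshold in young mice at 0.55 (edgeR adjusted p = 0.0544). Kdr lost its call at both ages, with values of 0.069 and 0.32 (edgeR adjusted p = 0.824 and 0.265). Slco1a4 was lower at both ages, at -1.71 and -2.41. Flt1, Ocln and Abcb1a were each lower at both ages on this scale, with log2 fold changes of -0.79 and -0.97, -0.88 and -0.68, and -0.76 and -0.94.

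Levels of different genes were compared per exon length, in TPM, a level scaled to length and library. In naïve tissue the order was headed by Slco1a4, at 96.5 ± 18.6 TPM in young and 110.5 ± 21.9 TPM in middle-aged mice (SD, n = 3), followed by Tjp1 at 54 ± 0.606 and 49.8 ± 10.6 TPM and Flt1 at 23.9 ± 2.98 and 32.9 ± 4.21 TPM. The pools of these neighbours did not overlap. Below Flt1, the genes Ocln, Cldn5, Kdr, Abcb1a, Pecam1 and Cdh5 lay between 7.99 and 17.2 TPM in both ages, and neighbours in that stretch overlapped. Tek was last at 5.19 ± 1.8 and 5.05 ± 2.2 TPM. After injury Tjp1 came first, at 64.3 ± 5.35 and 54.6 ± 5.0 TPM, and Cdh5 climbed to the third place in young mice, at 35.8 ± 10.9 TPM, and to the second place in middle-aged mice, at 38 ± 2.85 TPM. Slco1a4 dropped to 45.2 ± 9.84 and 31.1 ± 8.96 TPM, and its pools then overlapped those of Cdh5. Tek remained last at 6.54 ± 1.36 and 5.91 ± 0.709 TPM, apart from Abcb1a just above it.

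**Figure D3:**
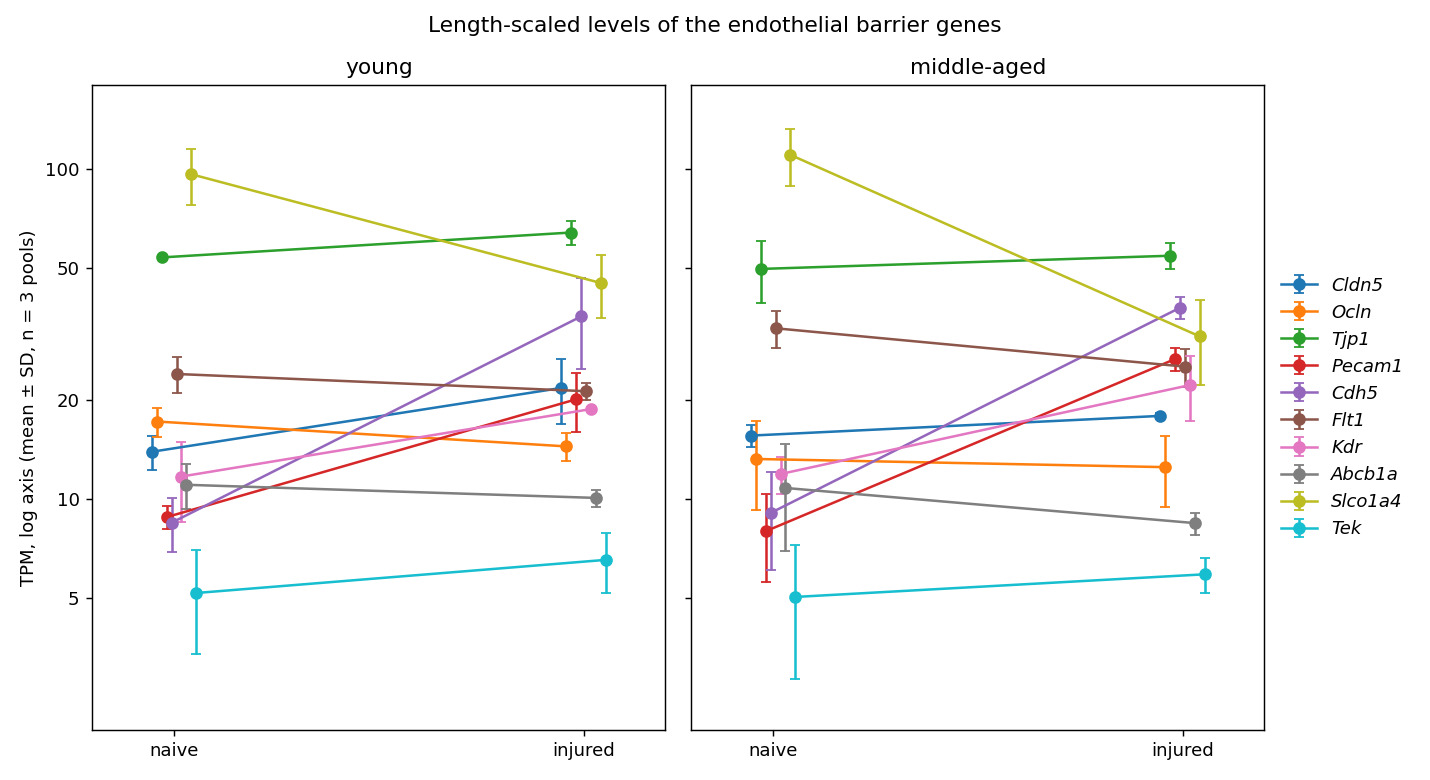
Mean level per exon length (TPM, log axis; whiskers are SD, n = 3 pools) of the 10 barrier genes in naïve and injured tissue of young (left) and middle-aged mice (right). The lines of Slco1a4 and Cdh5 run towards each other, from 96.5 and 8.48 TPM to 45.2 and 35.8 TPM in young mice.

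Ratios within a pool do not depend on the scaling of the library. The TPM ratio of Slco1a4 to Cdh5 was 11.4 ± 1.30 in young naïve and 12.5 ± 2.14 in middle-aged naïve tissue, and 1.37 ± 0.55 and 0.832 ± 0.297 after injury. For Kdr to Flt1 it was 0.484 ± 0.095 and 0.362 ± 0.014 in naïve tissue, against 0.885 ± 0.063 and 0.879 ± 0.152 after injury. The ratio of Cdh5 to Cldn5 changed from 0.614 ± 0.133 and 0.584 ± 0.187 to 1.68 ± 0.54 and 2.13 ± 0.12. In each of these 3 ratios the injured pools of either age did not overlap the naïve pools. For Slco1a4 and Cdh5 this had to follow, since each gene alone was apart, in opposite directions. Of single genes, 67.2% in young and 61.1% in middle-aged mice had no overlap. The pairs set genes that moved differently against each other, so that the ratios describe the values above and add no support to them. With 3 pools against 3, an exact permutation test of a single ratio could not fall below 0.10, so that none was made.

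The next comparison was of middle-aged with young mice. In naïve tissue 1 of 10 members was called, Flt1, which was higher in the middle-aged pools by 0.53 ± 0.13 (SE) on the log2 scale (edgeR adjusted p = 0.0386), against 3.80% of all genes called in this comparison (2.02% higher). All 3 middle-aged naïve pools lay above all 3 young naïve ones, as 17.1% of all genes did in either direction. The call did not withstand the loss of single pools, with an adjusted p of 0.113 without young naïve pool 2, 0.107 without young naïve pool 3, 0.0736 without middle-aged naïve pool 1, 0.0548 without middle-aged naïve pool 3, 0.055 without young injured pool 1, 0.0609 without young injured pool 2, 0.057 without young injured pool 3 and 0.058 without middle-aged injured pool 1. It was also lost when only the 6 naïve pools were fitted (adjusted p = 0.203) and relative to the other endothelial genes (adjusted p = 0.361). The other 9 members differed between naïve ages by -0.31 (Ocln) to 0.26 (Slco1a4) on the log2 scale. The tissue markers differed too: 3 of 6 oligodendrocyte genes were called lower and 4 of 6 pan-myeloid genes higher in middle-aged naïve pools. Their part in these values was not tested.

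Between the injured groups no member was called by edgeR or by DESeq2, against 1.15% of all genes. Pecam1 and Flt1 had an unadjusted p under 0.05: Pecam1 was higher in the middle-aged lesions by 0.52 ± 0.19 (95% interval 0.12 to 0.92, edgeR adjusted p = 0.292) and Flt1 by 0.36 ± 0.13 (0.083 to 0.64, edgeR adjusted p = 0.29). Kdr was higher by 0.36 ± 0.20 (-0.070 to 0.78, edgeR adjusted p = 0.669). For these 3 genes each middle-aged injured pool exceeded each young injured one, as did 11.1% of all genes, and 23.3% of all genes had no overlap in either direction. The summed CPM of the 6 myeloid genes was 1461 to 1950 in the middle-aged and 1373 to 1394 in the young lesions, with none of the 6 called by edgeR, and its part in these values was not tested. The difference between ages in the change with injury was not called for any member by edgeR or DESeq2, with 0.139% of all genes called by edgeR. Only Pecam1 had an unadjusted p under 0.05, and the 95% intervals of 0.017 to 1.19 for Pecam1 and -1.37 to 0.0062 for Slco1a4 on the log2 scale include sizeable differences. The share of all genes at an unadjusted p under 0.05 is not given here for these comparisons of age. The 2 ages shared no pools in their injury comparisons, while the age and injury comparisons did share them.

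The ligands and partners of the 3 receptors were then examined, as a list of 11 genes. In young mice 6 were called higher and 1 lower, and in middle-aged mice 3 higher and 4 lower, with median log2 fold changes of 0.36 and 0.52. Of all genes, 28.3% were called higher and 26.3% lower in young mice, and 29.2% and 29.3% in middle-aged mice. The strongest was Angpt2, the antagonist of Angpt1 that endothelial cells store and release, which measured 1.37, 0.544 and 1.61 CPM in the young naïve pools, 0.48, 1.36 and 0.48 CPM in the middle-aged naïve pools, 14.8, 23.1 and 9.71 CPM in the young injured pools and 19.2, 16.6 and 13.2 CPM in the middle-aged injured pools. Every injured pool was several times above the highest naïve pool. On the log2 scale the injury effect was 3.76 ± 0.43 (SE) for young (edgeR adjusted p = 4.45e-06) and 4.42 ± 0.46 for middle-aged mice (edgeR adjusted p = 1.34e-06).

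Angpt1, which is made mainly by cells around the vessel, measured 5.47, 4.71 and 4.19 CPM in the young naïve pools, 5.28, 4.51 and 6.0 CPM in the middle-aged naïve pools, 4.92, 6.9 and 5.2 CPM in the young injured pools and 2.41, 3.11 and 3.97 CPM in the middle-aged injured pools. It was lower in the middle-aged lesions, at -0.74 ± 0.27 (edgeR adjusted p = 0.0293) and showed no call in young lesions, at 0.24 ± 0.26 (edgeR adjusted p = 0.463). The call in middle-aged mice was lost with an adjusted p of 0.0891 without middle-aged naïve pool 3, 0.124 without middle-aged injured pool 1 and 0.0678 without middle-aged injured pool 2, and of 0.0576 with library totals, 0.0876 with no filter and 0.0771 with the 6 pools alone, and the difference between ages was not called (log2 -0.98 ± 0.38, edgeR adjusted p = 0.383). The TPM ratio of Angpt2 to Angpt1 was 0.353 ± 0.190 in young naïve and 0.223 ± 0.177 in middle-aged naïve tissue, where it rested on few Angpt2 counts, and 3.87 ± 1.09 and 7.82 ± 3.28 in the lesions.

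The co-receptors rose most evenly. Nrp1, which binds VEGF-A and semaphorins, measured 49.9, 48.9 and 36.9 CPM in the young naïve pools, 41.6, 36.2 and 50.2 CPM in the middle-aged naïve pools, 259, 274 and 264 CPM in the young injured pools and 339, 307 and 278 CPM in the middle-aged injured pools. It was higher by 2.55 ± 0.15 at the younger and 2.85 ± 0.15 at the older age (edgeR adjusted p = 5.97e-09 and 2.13e-09), with all injured pools apart from the naïve ones. Nrp2 was higher by 2.13 ± 0.20 and 1.97 ± 0.20 (edgeR adjusted p = 7.09e-07 and 1.13e-06). Both co-receptors are also carried by microglia, macrophages and other cells, whose markers rose in the same pools, and that part was not tested.

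Among the VEGF ligands, Pgf, which binds Flt1 but not Kdr, fell. It measured 11.5, 12 and 11.3 CPM in the young naïve pools, 8.93, 14.9 and 13.8 CPM in the middle-aged naïve pools, 5.14, 5.66 and 3.99 CPM in the young injured pools and 5.56, 5.27 and 6.04 CPM in the middle-aged injured pools. The injured pools were all below the naïve ones, with log2 fold changes of -1.23 ± 0.23 and -1.15 ± 0.22 (edgeR adjusted p = 3.42e-04 and 4.98e-04). Vegfb, the other ligand specific to Flt1, measured 60.3, 61.5 and 50.6 CPM in the young naïve pools, 80.1, 88.3 and 77.7 CPM in the middle-aged naïve pools, 52.3, 48.9 and 52.2 CPM in the young injured pools and 56.4, 59.5 and 59.6 CPM in the middle-aged injured pools. In naïve tissue the middle-aged level was above the young one by 0.51 ± 0.12 (edgeR adjusted p = 0.026) and it was lower in the middle-aged lesions than in the middle-aged naïve tissue, at -0.49 ± 0.12 (edgeR adjusted p = 0.00217). Young mice had -0.17 ± 0.12 after injury (edgeR adjusted p = 0.233). Whether the naïve age call of Vegfb held under other settings or without single pools is not given here.

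Vegfa, the ligand of both receptors, showed no call after injury, at -0.32 ± 0.19 and 0.064 ± 0.19 (edgeR adjusted p = 0.171 and 0.79). It measured 33.4, 25 and 40.2 CPM in the young naïve pools, 48.1, 34.8 and 46.5 CPM in the middle-aged naïve pools, 27.3, 24.6 and 27 CPM in the young injured pools and 51.1, 47.6 and 36.7 CPM in the middle-aged injured pools. All middle-aged injured pools were above the young injured ones, a difference of 0.78 ± 0.19 that was not called (edgeR adjusted p = 0.0725). Flt4, the lymphatic VEGF receptor, was not called at either age (-0.44 ± 0.49 and 0.66 ± 0.50, edgeR adjusted p = 0.481 and 0.27).

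Vegfc, Tie1 and Ptprb made up the remaining calls, each close to the threshold. Vegfc was low, at 9 to 39 counts per pool, and was higher in young lesions by 1.18 ± 0.43 (edgeR adjusted p = 0.032), with 0.52 ± 0.41 in middle-aged ones (edgeR adjusted p = 0.302). Tie1, the partner receptor of Tie2, differed by 0.80 ± 0.30 and 0.70 ± 0.30 (edgeR adjusted p = 0.0369 and 0.0617). Ptprb, the phosphatase VE-PTP that restrains Tie2, was higher in young lesions by 0.36 ± 0.14 (edgeR adjusted p = 0.0419) and lower in middle-aged lesions, at -0.35 ± 0.14 (edgeR adjusted p = 0.0457), and the difference between ages was not called (log2 -0.71 ± 0.20, edgeR adjusted p = 0.193). In middle-aged mice its call was lost under 6 of 9 other settings, with an adjusted p of 0.0579 with RLE factors, 0.163 with library totals, 0.0654 with DESeq2, 0.094 with no filter, 0.0559 with the replicate block and 0.0759 with the 6 pools alone. In young mice it was lost with upper-quartile factors (0.0837), no filter (0.0604) and the block (0.0502), and relative to the other endothelial genes its value was -0.15. The young call of Tie1 was lost with upper-quartile factors (0.0521), no filter (0.0576), the block (0.0605) and relative to the other endothelial genes (0.524), and that of Vegfc with no filter (0.0579) and relative to those genes (0.252). When single pools were left out, the adjusted p of Vegfc in young mice was 0.0519 without young naïve pool 1, 0.105 without young naïve pool 2, 0.0583 without young naïve pool 3, 0.114 without young injured pool 1 and 0.0843 without young injured pool 2. For Tie1 in young mice it was 0.113 without young naïve pool 1, 0.104 without young naïve pool 2, 0.169 without young injured pool 1, 0.104 without young injured pool 2 and 0.0507 without middle-aged injured pool 1. For Ptprb in young mice it was 0.0849 without young naïve pool 1, 0.0944 without young naïve pool 2, 0.0698 without young naïve pool 3, 0.178 without young injured pool 1, 0.105 without young injured pool 2 and 0.0543 without middle-aged injured pool 1, and in middle-aged mice 0.0568 without young naïve pool 1, 0.0624 without young naïve pool 2, 0.0527 without young naïve pool 3, 0.18 without middle-aged naïve pool 1, 0.0506 without young injured pool 1, 0.0616 without young injured pool 2, 0.124 without middle-aged injured pool 1 and 0.158 without middle-aged injured pool 2. With these 3 genes uncalled, the count of higher genes in young mice was 3 in place of 6 without young naïve pool 1 or 2 or young injured pool 1 or 2. In middle-aged mice the count of lower genes was 2 in place of 4 without injured pool 1 or 2.

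**Figure D4:**
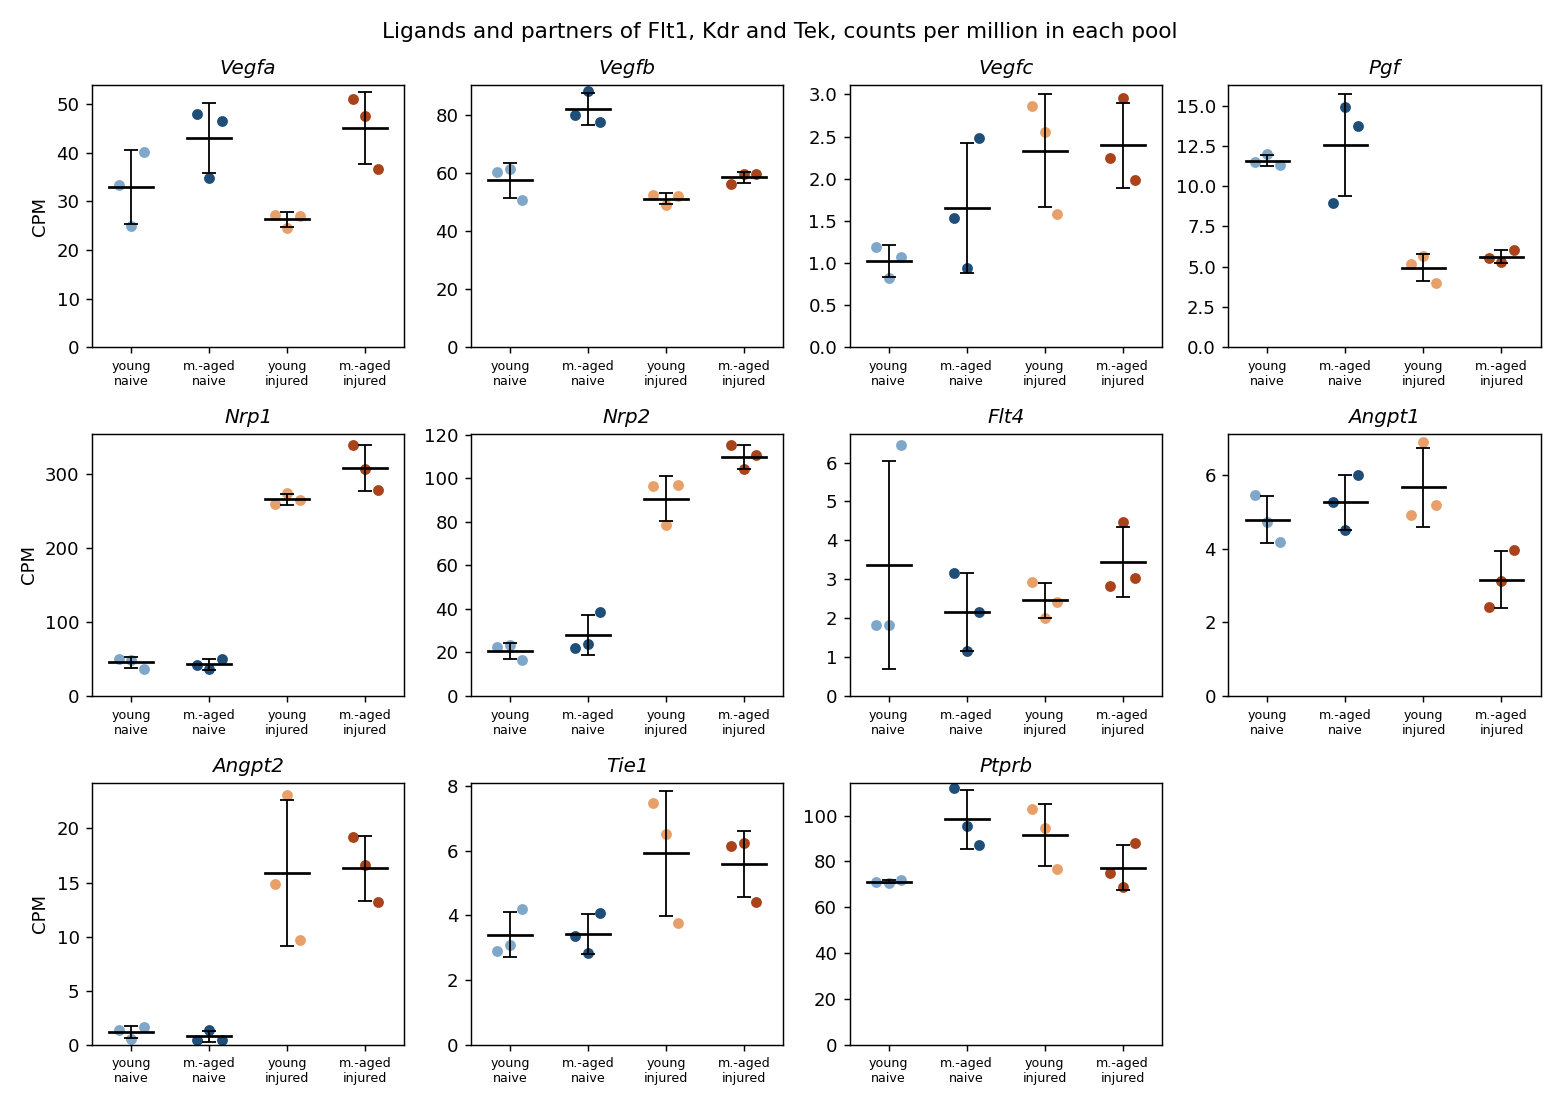
Library-scaled counts (CPM, linear axis from 0) of the 11 ligands and partners of Flt1, Kdr and Tek in each of the 12 pools, by group, with the mean (bar) and SD (whiskers, n = 3). Nrp1, Nrp2 and Angpt2 are higher in all injured pools and Pgf is lower, while Vegfa overlaps between naïve and injured tissue of the same age.

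Around the members, other parts of the barrier moved in both directions, as all genes did. Of all genes, 28.3% were called higher and 26.3% lower in young mice, and 29.2% and 29.3% in middle-aged mice. These shares are the background for the counts of each list below under trimmed-mean scaling with all pools. Shares by direction are not given for the other scales or with pools left out. The median of all genes was -0.49 in young and -0.52 in middle-aged mice relative to the other endothelial genes. With library totals it was 0.197 and 0.0771. Of 16 junction partners, 15 were tested, of which 8 were higher and 4 lower in young lesions and 5 higher and 4 lower in middle-aged lesions (median log2 fold changes 0.64 and 0.40). Ctnnb1, β-catenin, rose by 0.87 ± 0.12 and 0.94 ± 0.12 (edgeR adjusted p = 3.16e-05 and 1.40e-05). Jam2, a junctional adhesion molecule, rose by 0.64 ± 0.14 and 0.70 ± 0.14 (edgeR adjusted p = 0.0014 and 6.52e-04), whereas its relative Jam3 changed by -1.16 ± 0.13 and -1.52 ± 0.14 (edgeR adjusted p = 4.42e-06 and 2.91e-07). Jam3 is also made by oligodendrocytes, whose markers fell in the same pools, and that part was not tested. Relative to the other endothelial genes, 4 partners were higher and 5 lower in young and 1 higher and 6 lower in middle-aged mice, and Ctnnb1 and Jam2 lost their calls.

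Of 18 barrier transport and related genes, 6 were higher and 8 lower in young lesions and 6 higher and 6 lower in middle-aged ones, with medians of -0.12 and -0.0031. Over all genes, 54.6% in young and 58.5% in middle-aged mice were called in either direction. Slc22a8, the organic anion transporter Oat3 and so a functional relative of Slco1a4, measured 16.7, 23.3 and 23 CPM in the young naïve pools, 15.6, 20.6 and 24.5 CPM in the middle-aged naïve pools, 9.32, 7.05 and 5.12 CPM in the young injured pools and 1.16, 0.799 and 5.35 CPM in the middle-aged injured pools. The injured pools were all below the naïve ones, with log2 fold changes of -1.55 ± 0.44 and -3.06 ± 0.49 (edgeR adjusted p = 0.00838 and 9.11e-05). The proteoglycan gene Spock2 was lower, at -1.80 ± 0.18 and -2.25 ± 0.19 (edgeR adjusted p = 1.38e-06 and 1.59e-07). Slco2b1, another organic anion transporter that microglia also carry, rose by 1.5 ± 0.17 and 1.09 ± 0.17 (edgeR adjusted p = 4.51e-06 and 6.94e-05), against the direction of Slco1a4. Slc3a2, the heavy chain of amino acid exchangers, rose by 0.96 ± 0.15 and 1.18 ± 0.15 (edgeR adjusted p = 6.31e-05 and 8.38e-06). Relative to the other endothelial genes, 1 transport gene was higher and 9 lower in young and 3 higher and 9 lower in middle-aged mice.

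The Wnt programme that induces barrier properties, as a list of 16 genes, had 3 higher and 4 lower in young and 7 higher and 5 lower in middle-aged lesions (medians 0.20 and 0.37). The share of all genes called in either direction was 54.6% in young and 58.5% in middle-aged mice. Lrp5, a Wnt co-receptor, rose by 1.99 ± 0.38 and 2.88 ± 0.42 (edgeR adjusted p = 5.20e-04 and 3.69e-05), and Adgra2 (Gpr124), which relays Wnt7 to endothelium, by 1.21 ± 0.29 and 1.15 ± 0.29 (edgeR adjusted p = 0.00242 and 0.0034). Tspan12, a partner of norrin signalling, was lower, at -1.0 ± 0.16 and -1.01 ± 0.16 (edgeR adjusted p = 1.15e-04 and 9.81e-05). Axin2, a target gene of the pathway in many cell types, was lower, at -0.58 ± 0.22 and -1.34 ± 0.23 (edgeR adjusted p = 0.041 and 1.67e-04). Its call in young mice was lost with an adjusted p of 0.0521 without young naïve pool 1, 0.11 without young naïve pool 2, 0.0787 without young naïve pool 3, 0.090 without young injured pool 1, 0.0918 without young injured pool 2, 0.095 without young injured pool 3 and 0.0542 without middle-aged injured pool 1. With library totals the split in young mice was 7 higher and 2 lower, and relative to the other endothelial genes it was 2 higher and 5 lower at both ages. Without middle-aged injured pool 2, it was 6 higher and 3 lower in middle-aged mice.

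Of 11 genes of endothelial leak and activation, 8 were higher and 2 lower at both ages, against 28.3% and 29.2% of all genes higher, with a median log2 fold change of 1.90 in young and 1.88 in middle-aged mice when genes at or under 3 counts in all naïve pools were set at their lower bound. Icam1, an adhesion molecule for leukocytes that myeloid cells also carry, measured 1.46, 2.18 and 1.51 CPM in the young naïve pools, 3.26, 1.89 and 1.84 CPM in the middle-aged naïve pools, 21.1, 22.2 and 20.6 CPM in the young injured pools and 24.2, 21.8 and 23.4 CPM in the middle-aged injured pools, which was 3.62 ± 0.25 and 3.31 ± 0.24 on the log2 scale (edgeR adjusted p = 2.35e-08 and 3.31e-08). Vwf, the von Willebrand factor that is stored with Angpt2 in endothelial granules, rose by 2.94 ± 0.32 and 1.88 ± 0.30 (edgeR adjusted p = 2.53e-06 and 7.67e-05). The apelin pair fell, with Apln at -1.12 and -0.60 and its receptor gene Aplnr at -1.04 and -0.88 on the log2 scale (edgeR adjusted p = 9.11e-06, 0.00178, 0.00136 and 0.00434). Plvap and Esm1 were picked after their values were seen. Plvap, which forms the diaphragms of leaky vessels and is absent from a mature barrier, had 1 to 3 counts per naïve pool, and 7 to 19 in young injured and 21 to 48 in middle-aged injured pools. That was at least 3.74-fold higher in young and at least 9.07-fold higher in middle-aged lesions, taking 3 counts per naïve pool as the floor. Esm1, a gene of sprouting endothelium, had 0 to 9 counts per naïve pool against 50 to 287 per injured pool.

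The other endothelial list gave 4 higher and none lower of 14 in young mice, with 6 at an unadjusted p under 0.05 by edgeR in either direction, and 3 higher and none lower in middle-aged mice, with 7 at an unadjusted p under 0.05. Of all genes, at least 54.6% in young and 58.5% in middle-aged mice were under that unadjusted threshold, since they were called after adjustment. DESeq2 called 4 higher and none lower at either age, and its shares of all genes by direction are not given here. Ecscr, an endothelial surface protein, rose by 2.17 ± 0.27 and 1.95 ± 0.25 (edgeR adjusted p = 8.43e-06 and 1.29e-05), and Clec14a by 1.5 ± 0.27 and 0.92 ± 0.27 (edgeR adjusted p = 3.29e-04 and 0.00929). Clec14a in middle-aged mice had an adjusted p of 0.0574 without middle-aged injured pool 3. The count of higher genes was 2 in place of 4 without young injured pool 2, and 6 in place of 3 in middle-aged mice without naïve pool 2. With naïve pool 1 left out, it was 4 higher and 1 lower in middle-aged mice. With library totals 7 were higher at both ages, and relative to their own mean level 2 were higher in young mice and 2 higher and 1 lower in middle-aged mice.

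Mural cells, the pericytes and smooth muscle that wrap the endothelium, had 12 genes listed and 11 tested. In young lesions 4 were higher and 4 lower, and in middle-aged lesions 3 were higher and 5 lower, with medians of -0.33 and -0.58. The share of all genes called was 54.6% in young and 58.5% in middle-aged mice. Acta2, a contractile actin, rose by 3.72 ± 0.40 and 3.10 ± 0.40 (edgeR adjusted p = 2.03e-06 and 1.12e-05), and Cspg4 (NG2), which oligodendrocyte progenitors carry too, by 1.99 ± 0.24 and 1.83 ± 0.24 (edgeR adjusted p = 6.86e-06 and 1.41e-05). The pericyte gene Atp13a5 was lower, at -1.61 ± 0.36 and -2.36 ± 0.41 (edgeR adjusted p = 0.00166 and 1.91e-04), and Vtn, at -0.63 ± 0.22 and -1.85 ± 0.23 (edgeR adjusted p = 0.0262 and 7.91e-06). The call of Vtn in young mice was lost with an adjusted p of 0.129 without young naïve pool 2 and 0.11 without young injured pool 3. Without young naïve pool 2, young injured pool 1 or young injured pool 3, only 2 mural genes were lower in young mice, and with library totals only 1 was.

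**Figure D5:**
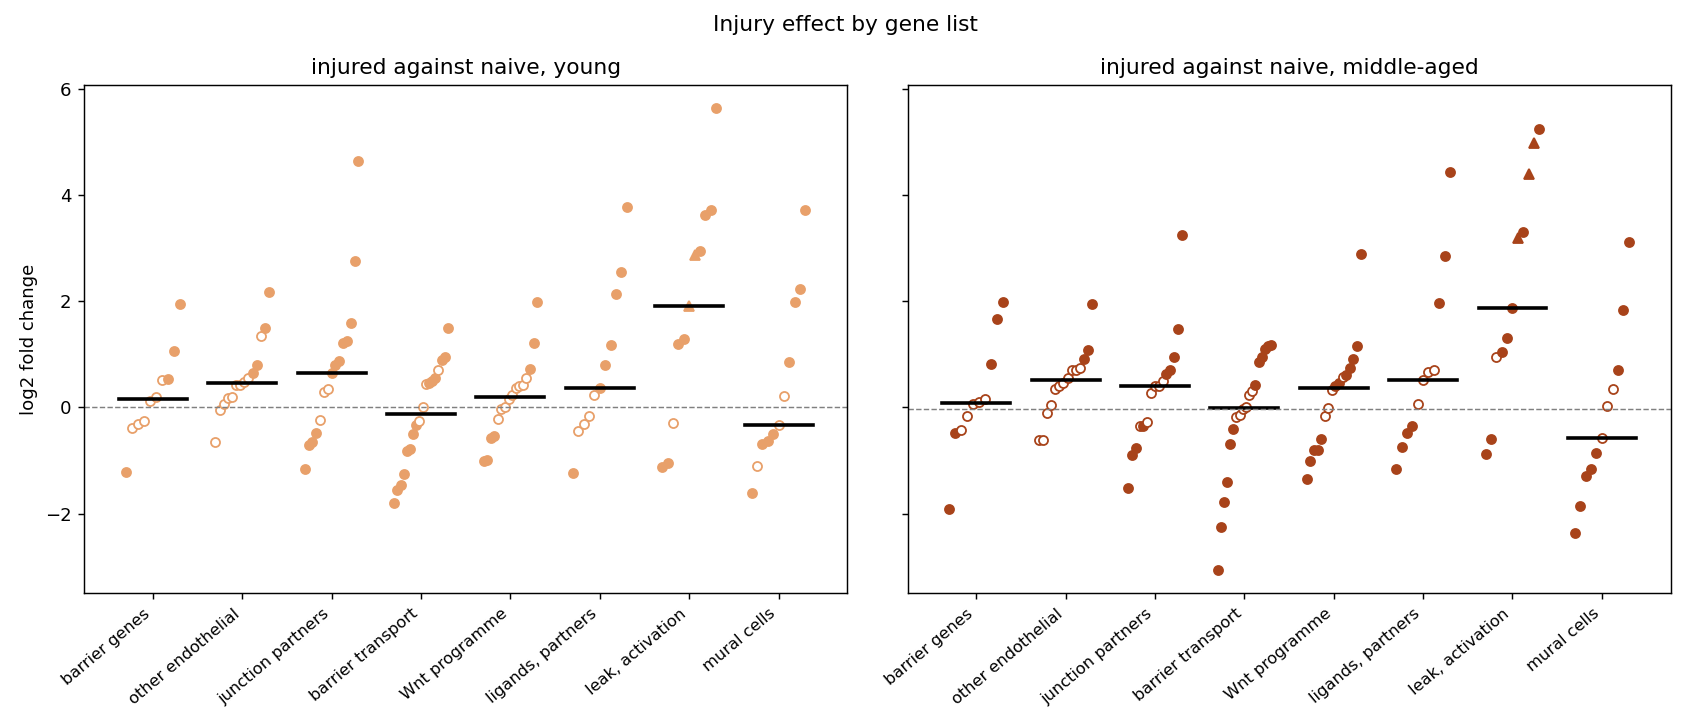
Log2 fold change of injured against naïve tissue for each gene tested, by list, in young (left) and middle-aged mice (right). Filled symbols were called, bars are list medians, the dashed line is the median of all genes, and triangles are lower bounds for genes at or under 3 counts in all naïve pools; the leak and activation list has its median at 1.90 and 1.88, while the barrier genes have theirs at 0.16 and 0.083.

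Finally, the genes that varied most like each member between pools of the same group were listed, by Pearson's r of the deviations from the group means over the 12 pools, among 9728 genes with a mean log2 CPM of at least 3. The pools share their depth and tissue mix in these values, and no test was made. The closest were Tmem38a for Cldn5 (r = 0.955), Otud6b for Ocln (0.965), Slc38a2 for Tjp1 (0.971), Cep85 for Pecam1 (0.937), Rhobtb2 for Flt1 (0.951), Rnf145 for Kdr (0.939), Amz2 for Abcb1a (0.969) and Ncapg2 for Tek (0.937). For Cdh5 they were Fut11 (0.900), Foxc1 (0.893) and Podxl (0.871), and for Slco1a4 they were Tmem243 (0.903), Pdcd10 (0.898) and Gja1 (0.894). Among the members themselves the highest r was 0.846, between Ocln and Tek, and the lowest was -0.191, between Cldn5 and Tjp1.

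In the genome, all 10 are protein-coding genes, placed here on GRCm38. Flt1, Kdr and Abcb1a lie on chromosome 5, at 147561604 to 147726011, 75932827 to 75978458 and 8660077 to 8748575. Cdh5 lies on chromosome 8 at 104101625 to 104144511, Pecam1 on 11 at 106654217 to 106750628, Slco1a4 on 6 at 141805440 to 141856199 and Tek on 4 at 94739289 to 94874976. Cldn5 lies on chromosome 16 at 18776847 to 18778262, Ocln on 13 at 100496507 to 100552718 and Tjp1 on 7 at 65296165 to 65527781. Counts covered all exons of a gene together, so that isoforms, such as the soluble form of Flt1 that traps ligand, were not told apart.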

How the data were processed

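Total RNA was taken from laser-captured ventrolateral white matter of stained spinal cord sections, amplified during library building and sequenced on a NextSeq500. Per the labels and the study's methods, the authors checked reads with FastQC 0.11.4, aligned them with TopHat 2.0.10, which calls Bowtie 1.1.2, to the GRCm38 build, and counted them per gene with featureCounts, and the deposited values are raw read counts. The annotation release, the use of strand and the treatment of multiply mapped reads are not given in the sources used here. Amplification without molecular identifiers makes reads depend on each other, so that counting error understates the error of low genes.

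The 45229 of 46078 gene identifiers with a symbol (98.2%) were matched to GENCODE M21. The test of the counts was edgeR 4.0.16 under R 4.3.3 (filterByExpr, trimmed-mean scaling, quasi-likelihood test on 12 pools with 1 coefficient per group, Benjamini-Hochberg adjustment over 15866 genes, threshold 0.05), with DESeq2 1.42.0 as an alternative, and the fits were tested on simulated data. Standard errors are the log2 fold change divided by the root of the F statistic, and 95% intervals use the degrees of freedom of the fit. TPM was taken from counts over the union exon length. Replicates of a group differed by more than sampling noise (chi-square per degree of freedom of at least 7.48 over 12 pairs). The pools are separate samples, and the p-values measure the spread between pools of 5 mice.

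Members and gene lists were chosen with earlier results of these data known. Named genes were the 10 members, all ligands and partners, and from each other list up to 2 genes per direction with the largest mean injury effect among those called at both ages with a mean log2 CPM of at least 1 and no overlap of pools, besides the 3 genes most like each member. Of the junction partners, 1 gene that this rule names is not reported here. Shared sequence was counted as 50-base stretches of a gene's transcripts found in other genes.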

Additional observations from a re-analysis of the deposited data

How the results depend on the processing

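Each comparison was repeated with RLE factors, upper-quartile factors, library totals or factors from the 14 other endothelial genes in place of trimmed means, with DESeq2, with no filter or a CPM filter on low counts, with the 6 pools compared alone, blocked on replicate number, and leaving out every pool once. The number of members called after injury stayed within 1.5 times at both ages. Of the comparisons, naïve age had 1 member called, Flt1, and 0 relative to the other endothelial genes and 0 with the naïve pools alone, and 0 to 1 when single pools were left out. Over single members and named genes, 1035 values kept their direction and call under the other settings, 17 gained a call, 37 lost it and 16 turned direction. When pools were left out, these numbers were 1390, 8, 54 and 36. The causes were not tested, beyond the shift that a scaling brings by construction. Values that stayed uncalled count among those kept. Beyond the members, these counts cover injury comparisons only, besides Mfsd2a between naïve ages and Wnt7a in the difference of injury effects. Outside the members and the ligands and partners, most named genes were picked as called at both ages without overlap of pools. Their steadiness was thus partly set by that choice. Scaling to the other endothelial genes moved the median of all genes by over 0.1 and gave log2 fold changes of -0.36 (Tjp1), -0.31 (Tek), -0.25 (Angpt1) and -0.15 (Ptprb) after injury in young mice, -0.38 (Cldn5), -0.45 (Tjp1), -0.38 (Tek), -0.44 (Vegfa) and -0.11 (Wnt7a) after injury in middle-aged mice, and -0.046 (Kdr), -0.100 (Abcb1a) and -0.095 (Tek) between naïve ages, all turned from the values of the report. Library totals turned Vegfb after injury in young mice to 0.028 and the age difference in the effect on Cdh5 to -0.048. With the replicate block, Tek turned to 0.0088 between injured ages and to 0.0046 in the difference of injury effects, Flt1 gained its call after injury in young mice (edgeR adjusted p = 0.0373), and Tie1 in young mice and Ptprb at both ages lost theirs. Same-numbered pools of different groups did not deviate together (r from -0.113 to 0.153 over 18 pairs, and -0.174 to 0.172 over the 36 other pairs), so that the numbers were not taken to pair the pools, and the block gave 8577 and 9153 calls after injury over all genes in place of 8660 and 9283.

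Leaving out 1 pool turned only values without a call. Their log2 fold changes then ran from -0.39 to 0.074 (Ocln), -0.054 to 0.15 (Tjp1), -0.049 to 0.53 (Tek) and -0.063 to 0.20 (Vegfa) after injury in middle-aged mice, and from -0.74 to 0.43 (Flt4) after injury in young mice. Between naïve ages they ran from -0.14 to 0.063 (Tjp1), -0.27 to 0.073 (Pecam1), -0.10 to 0.32 (Cdh5), -0.13 to 0.23 (Kdr), -0.20 to 0.23 (Abcb1a) and -0.36 to 0.36 (Tek). Between injured ages the ranges were -0.33 to 0.043 (Cldn5), -0.31 to 0.057 (Ocln) and -0.18 to 0.12 (Tek), and for the age difference of the injury effect -0.010 to 0.45 (Ocln), -0.18 to 0.024 (Tjp1), -0.13 to 0.31 (Cdh5), -0.37 to 0.057 (Abcb1a) and -0.39 to 0.32 (Tek). Over all genes, the naïve age comparison had 603 calls, against 1085 with DESeq2, 1153 with no filter, 323 relative to the other endothelial genes and 71 with the naïve pools alone. The injured age comparison had 182 calls, against 446, 437 and, with the injured pools alone, 818, and the difference of injury effects had 22, against 240 with DESeq2 and 329 with no filter. Depth limits the lowest genes named, such as Flt4 at 11 to 60, Lrp5 at 4 to 81 and Angpt1 at 29 to 89 counts per pool. Of the members, Cldn5 and Tek had fewer than 150 counts in each pool.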

Other observations

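Mfsd2a, the lipid transporter that restrains transcytosis in barrier endothelium, measured 17.7, 17.5 and 17.2 CPM in the young naïve pools, 12.4, 7.55 and 9.68 CPM in the middle-aged naïve pools, 8.15, 11.5 and 10.8 CPM in the young injured pools and 5.06, 6.31 and 7.08 CPM in the middle-aged injured pools. It was lower after injury at both ages (-0.79 ± 0.22 and -0.68 ± 0.22 on the log2 scale, SE, edgeR adjusted p = 0.00646 and 0.017), and its difference between naïve ages of -0.82 ± 0.22 was not called (edgeR adjusted p = 0.0518), although the 3 middle-aged pools were all below the 3 young ones. The naïve difference was called with DESeq2 (adjusted p = 0.0112), with no filter (edgeR adjusted p = 0.0369) and without middle-aged naïve pool 1 (0.0214). The injury call in middle-aged mice was lost with an adjusted p of 0.0805 without middle-aged naïve pool 1 and 0.0819 without middle-aged injured pool 1, and of 0.0579 with the 6 pools alone. Mfsd2a and Wnt7a were picked after their values were seen.

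Wnt7a, a ligand that induces barrier properties, was called lower after injury in young and higher in middle-aged mice. It measured 42.7, 42.5 and 38.9 CPM in the young naïve pools, 35.7, 28 and 31.6 CPM in the middle-aged naïve pools, 26.2, 33 and 26.3 CPM in the young injured pools and 38.5, 46.3 and 40.9 CPM in the middle-aged injured pools. The log2 fold change was -0.54 ± 0.15 for young (edgeR adjusted p = 0.00604) and 0.40 ± 0.15 for middle-aged mice (edgeR adjusted p = 0.0294), with all injured pools below the naïve ones in the first and above them in the second. The difference of 0.94 ± 0.21 between the 2 effects was not called after adjustment over all genes (edgeR adjusted p = 0.103). The difference was called with DESeq2 (adjusted p = 0.00278) and with no filter (edgeR adjusted p = 0.0385). The call in middle-aged mice was lost with an adjusted p of 0.0718 without middle-aged naïve pool 2, 0.0575 without middle-aged naïve pool 3 and 0.12 without middle-aged injured pool 2, of 0.058 with upper-quartile factors, 0.0643 with no filter and 0.0799 with the 6 pools alone, and relative to the other endothelial genes the value was -0.11. The young call was lost with library totals (adjusted p = 0.0648).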
